A study of Mus musculus with 32 samples.

Results

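The 10 genes described here are 8 imprinted growth genes (Igf2, H19, Dlk1, Meg3, Mest, Peg3, Plagl1 and Grb10) and the genes of 2 RNA-binding proteins that take Igf2 mRNA as a target (Igf2bp1 and Igf2bp3). They were taken by symbol from 32285 genes counted in whole bladders of female C57BL/6 mice, and all 10 were found. Untreated bladders came from young mice at 2 months (n = 6), middle-aged mice at 10 months (n = 5) and old mice at 26 months (n = 6). The remaining 3 groups were also 26 months old and had been gavaged for 3 consecutive days each month from 21 to 26 months. They received water (n = 5), the vehicle of a lipid carrier, polyethylene glycol and ethanol (n = 4), or the senolytic pair dasatinib and quercetin in that vehicle (D+Q, 5 and 50 mg/kg/day, n = 6). Senolytics are drugs meant to kill senescent cells. Each library was 1 bladder and held total RNA of the whole organ, so fewer cells of a type and less RNA per cell cannot be told apart.

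An imprinted gene is read from only the maternal or only the paternal copy. Many imprinted genes set growth of the fetus and placenta and are turned down after birth in most organs. Igf2 encodes a fetal growth factor read from the paternal copy. H19, its neighbor read from the maternal copy, makes a long noncoding RNA that is the precursor of the miRNA miR-675. Dlk1, a membrane protein related to the Notch ligands, and Meg3, a maternal noncoding RNA, form a second such pair. Mest encodes a hydrolase-like protein of mesoderm, Peg3 and Plagl1 encode zinc finger proteins, and Grb10 encodes an adaptor that dampens insulin and IGF1 receptor signaling. Igf2bp1 and Igf2bp3 bind mRNAs including that of Igf2, are made mainly in the embryo, and are not imprinted.

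On the mm10 build, H19 (ENSMUSG00000000031, chr7:142575529-142578143, minus strand) and Igf2 (ENSMUSG00000048583, chr7:142650766-142666816, minus strand) lay 72622 bases apart. Dlk1 (ENSMUSG00000040856, chr12:109452823-109463336, plus strand) and Meg3 (ENSMUSG00000021268, chr12:109541001-109571726, plus strand) lay 77664 bases apart. Chromosome 6 held Mest (ENSMUSG00000051855, chr6:30723547-30748465, plus strand) and Igf2bp3 (ENSMUSG00000029814, chr6:49085223-49214957, minus strand). Chromosome 11 held Grb10 (ENSMUSG00000020176, chr11:11930508-12038683, minus strand) and Igf2bp1 (ENSMUSG00000013415, chr11:95957163-96005940, minus strand). Peg3 (ENSMUSG00000002265) lay at chr7:6703892-6730431 on the minus strand and Plagl1 (ENSMUSG00000019817) at chr10:13060504-13131694 on the plus strand. Exons of 4 members overlapped a gene on the opposite strand. Copg2 covered 23.1% of the exon bases of Mest, and Malsu1 covered 18.7% of those of Igf2bp3. Igf2os covered 1.71% of Igf2, and Gm29202 covered 0.444% of Igf2bp1. Whether the counting used strand is not given in the sources used here, so it is not known how reads in these stretches were counted.

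The mature sequences of miR-675 are shown because both lie inside an exon of H19, the member that fell most from 2 to 10 months. They come from RefSeq on GRCm38.p6, at chr7:142577112-142577133 and chr7:142577078-142577099 on the minus strand, and capitals mark the seed, bases 2 to 8. The 2 arms do not share a seed. Small RNA was not measured, so no level of miR-675 is given.
mmu-miR-675-5p: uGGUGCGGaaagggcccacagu
mmu-miR-675-3p: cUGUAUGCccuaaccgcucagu

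The promoters of Meg3 and Igf2bp3 are shown because both genes fell early and each had a window that matched some of the motifs searched. They were thus chosen for having matches. Each RefSeq window runs from 250 bases before to 50 bases after an annotated start, on GRCm38.p6, at chr12:109540746-109541045 on the plus strand for Meg3 and chr6:49214905-49215204 on the minus strand for Igf2bp3. Capitals mark motif matches. In Meg3 these are TGACGTCA, the cyclic AMP response element, which begins 57 bases before the start, and TATAAA, the TATA box, which overlaps itself on both strands from 29 bases before the start. In Igf2bp3 both matches are CACGTG, an E-box, the first of them 23 bases before the start.
Meg3: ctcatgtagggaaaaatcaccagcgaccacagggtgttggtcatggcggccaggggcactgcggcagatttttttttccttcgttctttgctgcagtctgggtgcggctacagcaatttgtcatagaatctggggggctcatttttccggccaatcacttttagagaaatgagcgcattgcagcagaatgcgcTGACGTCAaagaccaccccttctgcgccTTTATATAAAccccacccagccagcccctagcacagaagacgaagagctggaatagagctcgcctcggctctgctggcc
Igf2bp3: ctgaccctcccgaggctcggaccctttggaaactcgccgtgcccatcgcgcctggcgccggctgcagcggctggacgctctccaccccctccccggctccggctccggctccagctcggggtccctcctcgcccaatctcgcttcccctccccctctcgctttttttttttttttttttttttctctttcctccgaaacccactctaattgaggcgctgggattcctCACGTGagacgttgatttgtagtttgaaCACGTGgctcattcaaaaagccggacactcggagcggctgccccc

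Both strands were searched for these motifs and for GGGGCCCC, the core of the PLAGL1 site, in the 15 windows listed for 8 members. H19 and Igf2bp1 had no entry. TGACGTCA was in 2 of the 15 windows (Meg3 and Peg3) and in 1.79% of all 32817 promoters. CACGTG was in 2 windows (Igf2bp3 and Plagl1) and in 7.15% of all promoters, TATAAA was in 1 window (Meg3) and in 13.6%, and GGGGCCCC was in 1 window (Peg3) and in 1.07%. The windows of Mest, Grb10, Igf2 and Dlk1 held none of the 4 motifs. A match is a description of these letters only.

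Libraries held 15088372 to 52650259 counts, and 3 counts, taken as the floor of detection, corresponded to 0.0571 to 0.203 CPM (counts per 1000000 counts of the library). Young replicates 3 and 4 were the shallowest, at 15088372 and 16881598 counts. Young replicate 4 also had the lowest Igf2, H19, Plagl1, Grb10, Igf2bp1 and Igf2bp3 of its group and the highest Mest, and each early change below was refitted without it.

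Compared per length as TPM (counts per exon base, scaled to 1000000 in each library), Meg3 had the highest level of the 10 in every group. Its mean was 78.3 ± 9.37 TPM in young bladders (SD, n = 6) and 44.9 ± 5.78 TPM in old untreated bladders (n = 6). Peg3, Grb10, Plagl1 and Igf2 followed, with young means of 37.4, 34.8, 23.9 and 23.5 TPM. Ranges of Peg3 and Grb10 overlapped, as did those of Plagl1 and Igf2, so the order within each of these pairs is not set apart by the spread. Young H19 (6.53 TPM), Dlk1 (6.00 TPM) and Mest (4.02 TPM) also overlapped in range. Igf2bp3 (1.86 TPM) and Igf2bp1 (0.662 TPM) were the lowest in that order in all 6 groups. H19 stood above Dlk1 and Mest in young bladders and below both in middle-aged ones, at 1.31 TPM against 4.58 and 2.96 TPM, with no overlap of its range with theirs.

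From 2 to 10 months all 10 members had a lower fitted level, and 6 fell past an adjusted p of 0.05 in edgeR's quasi-likelihood test. They were H19, Igf2bp3, Igf2bp1, Meg3, Mest and Grb10. Of all 16754 genes tested, 5.85% fell, and 10.8% passed in either direction. The median log2 change of the 10 members was -0.42, against 0.0028 over all genes tested. CPM of 5 of the 10 members did not overlap between young and middle-aged bladders, against 7.07% of all genes. The members were chosen with earlier results of these data known. These and the later shares set beside all genes are therefore descriptions.

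**Figure D1:**
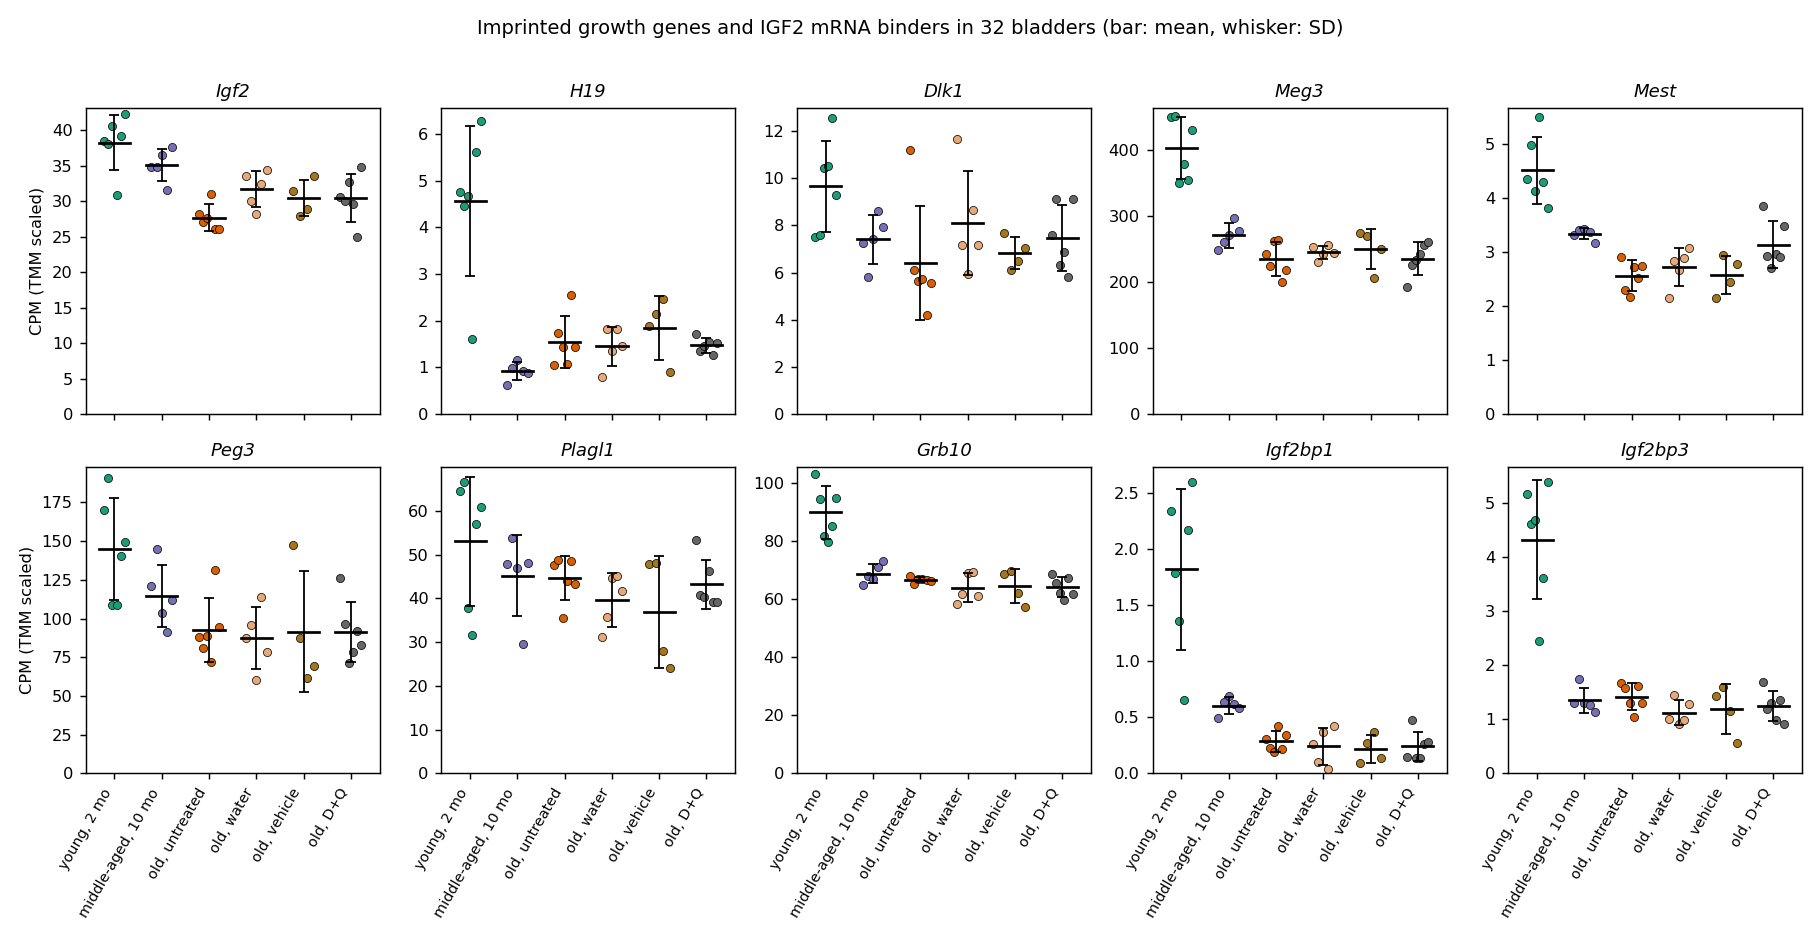
Level of each of the 10 members in every bladder, in CPM after TMM scaling (y axis, from 0, a separate scale for each gene), for the 6 groups along the x axis. Points are bladders, bars are means and whiskers are SDs. The means of H19, Igf2bp1 and Igf2bp3 are far higher in young bladders than in the other groups. Young replicate 4 is the lowest young point of all 3 genes. It lies within the range of another group for H19 and Igf2bp1.

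H19 fell most in this interval. Young bladders held 1.61 CPM at the lowest, 4.72 at the median and 6.28 at the highest. The 5 middle-aged bladders held 0.622, 0.986, 1.16, 0.933 and 0.882 CPM, all below the lowest young bladder. The log2 change was -2.33 (SE 0.28, adjusted p = 0.00083), from a mean of 4.56 ± 1.60 CPM (SD, n = 6) to 0.917 ± 0.196 CPM (n = 5). These levels rest on 27 to 191 counts in a young bladder and 19 to 42 in a middle-aged one. Without young replicate 4 the change was -2.50.

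The 2 mRNA binders fell with it. Igf2bp3 held 2.45, 4.64 and 5.37 CPM at the lowest, median and highest of the young bladders. The middle-aged bladders held 1.31, 1.75, 1.30, 1.27 and 1.13 CPM, with no overlap. The log2 change of Igf2bp3 was -1.69 (SE 0.20, adjusted p = 0.00076). Igf2bp1, the embryonic binder that stabilizes many growth mRNAs, held 0.657, 1.98 and 2.60 CPM at the lowest, median and highest of the young bladders. In middle age it held 0.491, 0.636, 0.692, 0.622 and 0.579 CPM, and young replicate 4 alone lay within that range. Its log2 change was -1.63 (SE 0.28, adjusted p = 0.0047), and -1.79 without that bladder. Igf2bp2, the third gene of the family, is the one usually kept in adult tissue. It held 18.2 ± 2.22 CPM in young (n = 6) and 16.7 ± 0.837 CPM in middle-aged bladders (n = 5), with a log2 difference of -0.13 (adjusted p = 0.32). In old untreated bladders its mean was lower again, at 14.9 ± 1.33 CPM (n = 6).

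Meg3 and Grb10 fell by less but with little spread. Meg3 held 351, 405 and 451 CPM at the lowest, median and highest of the young bladders. The middle-aged bladders held 248, 260, 272, 297 and 277 CPM. The log2 change was -0.58 (SE 0.08, adjusted p = 0.0013), and every middle-aged bladder lay below every young one. Grb10 went from 79.7 CPM in the lowest and 103 CPM in the highest young bladder to 64.9, 68.0, 66.9, 71.2 and 73.2 CPM, also with no overlap. Its log2 change was -0.40 (SE 0.07, adjusted p = 0.0039). Mest held 3.81 to 5.50 CPM in young bladders and 3.31, 3.40, 3.43, 3.36 and 3.17 CPM in middle-aged ones. Its log2 change was -0.44 (SE 0.11, adjusted p = 0.028). The call on Mest was lost without any one of the 5 middle-aged bladders or young replicate 2 (adjusted p = 0.052 to 0.080).

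The remaining 4 members did not pass the early test. Igf2 itself held 31.0, 38.8 and 42.3 CPM at the lowest, median and highest of the young bladders and 34.9, 34.9, 36.5, 31.7 and 37.7 CPM in middle age. Its log2 difference was -0.13 (95% interval -0.29 to 0.023, adjusted p = 0.26). Without young replicate 4 the difference was -0.19 and passed (adjusted p = 0.035). Dlk1, Peg3 and Plagl1 had differences of -0.39, -0.35 and -0.25, with adjusted p of 0.094, 0.17 and 0.45.

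**Figure D2:**
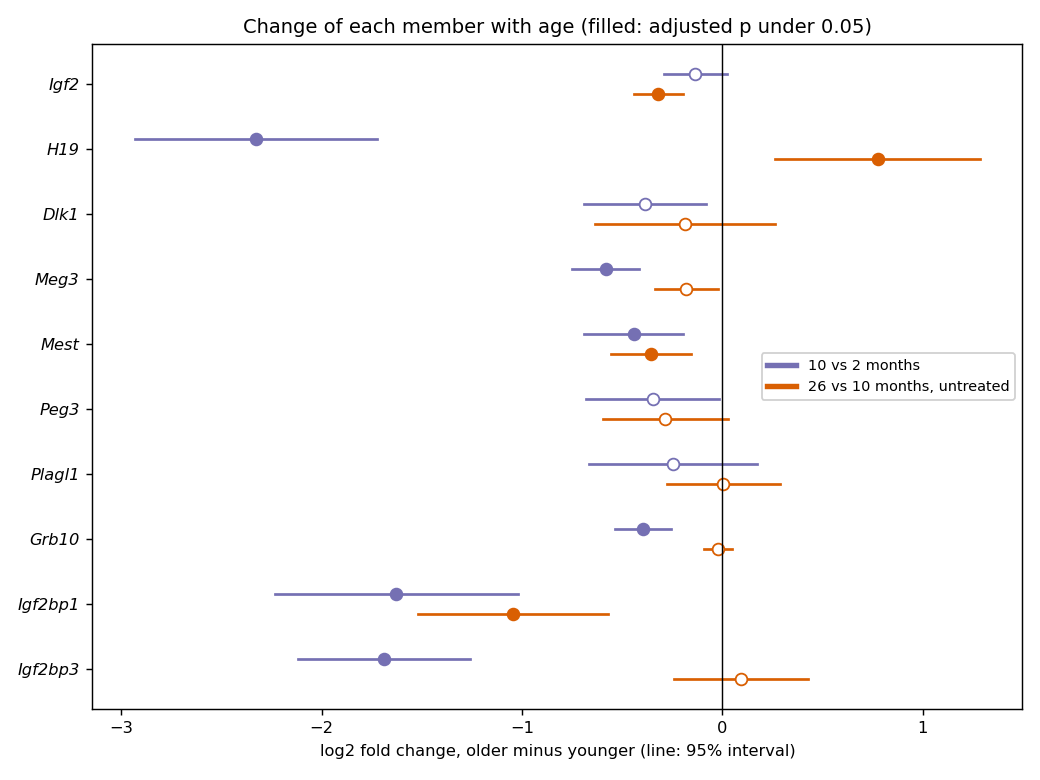
Log2 fold change of each of the 10 members (x axis) between 10 and 2 months and between 26 and 10 months in untreated bladders, with 95% intervals as lines and filled points for an adjusted p under 0.05. The early interval of H19 lies at -2.93 to -1.72 and the late one at 0.26 to 1.29, on opposite sides of 0.

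From 10 to 26 months in untreated bladders, 3 members fell, Igf2, Mest and Igf2bp1, and 1 rose, H19. Of 17156 genes tested, 24.0% passed, of which 11.0% of the genes tested fell and 13.0% rose. The median log2 change of the 10 was -0.18, against -0.0047 over all genes. CPM of 3 members did not overlap between the groups, against 15.8% of all genes.

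Igf2 fell in this interval. Old bladders held 26.0, 27.4 and 31.0 CPM at the lowest, median and highest, all below the lowest middle-aged bladder at 31.7 CPM. The log2 change was -0.32 (SE 0.06, adjusted p = 0.0013), and the mean went from 35.1 ± 2.27 (n = 5) to 27.7 ± 1.86 CPM (n = 6). Mest held 2.17, 2.62 and 2.91 CPM at the lowest, median and highest of the old bladders, again without overlap. The log2 change of Mest was -0.36 (SE 0.09, adjusted p = 0.013).

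Igf2bp1 fell a second time. Old bladders held 0.191, 0.267 and 0.424 CPM at the lowest, median and highest, and the lowest middle-aged bladder held 0.491 CPM. The log2 change was -1.04 (SE 0.22, adjusted p = 0.0043), on 66 counts in 6 old bladders and 103 in 5 middle-aged ones. With all 6 groups in 1 fit the adjusted p was 0.073. Igf2bp3 held 1.05, 1.44 and 1.67 CPM at the lowest, median and highest of the old bladders, across the middle-aged range. Its log2 difference was 0.09 (95% interval -0.24 to 0.43, adjusted p = 0.70).

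H19 rose from 0.917 ± 0.196 CPM in middle age to 1.55 ± 0.552 CPM in old bladders. The old bladders held 1.05, 1.43 and 2.54 CPM at the lowest, median and highest, and the ranges overlapped. The log2 change was 0.77 (SE 0.24, adjusted p = 0.031). The call was lost without middle-aged replicate 1, 4 or 5 or old replicate 2 (adjusted p = 0.055 to 0.075). With all 6 groups in 1 fit the adjusted p was 0.057. Old H19 stayed below young H19, at a log2 difference of -1.56 (SE 0.28, adjusted p = 0.0013).

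The remaining 5 members did not pass from 10 to 26 months. Meg3 had a log2 difference of -0.18 (adjusted p = 0.090), and it passed without old replicate 3 or 4 (adjusted p = 0.047 and 0.046). Peg3 had -0.28 (adjusted p = 0.18) and passed without old replicate 5 (-0.41, adjusted p = 0.025). Dlk1 had -0.19 (adjusted p = 0.56) and passed without old replicate 1 (-0.42, adjusted p = 0.028), the bladder that held 11.2 CPM of Dlk1 against 4.19 to 6.11 CPM in the other 5. Grb10 had -0.02, with a 95% interval of -0.090 to 0.047. Plagl1, a transcription factor gene, had 0.0044, and this value was below 0 without middle-aged replicate 4 or old replicate 1, 2 or 5.

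Over the whole span from 2 to 26 months, 8 of the 10 members fell, against 12.4% of 16873 genes tested (25.1% passed in either direction). CPM of 5 members did not overlap, against 12.8% of all genes. The exceptions were Dlk1, at -0.58 (adjusted p = 0.056), and Plagl1, at -0.25 (adjusted p = 0.30). Dlk1 passed without old replicate 1 (-0.82, adjusted p = 0.0017) and without young replicate 1 or 2 (adjusted p = 0.048 for both). It also passed in DESeq2 (adjusted p = 0.025) and with all groups in 1 fit (adjusted p = 0.016). The largest falls were those of Igf2bp1, at -2.68 (SE 0.31), Igf2bp3, at -1.60 (SE 0.19), and H19. Mest (-0.81), Meg3 (-0.77), Peg3 (-0.64), Igf2 (-0.46) and Grb10 (-0.43) fell by smaller amounts.

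The intervals were compared directly, as the log2 change from 10 to 26 months minus that from 2 to 10 months. The late interval is the longer one, so this compares whole changes and not changes per month. Of 17376 genes, 10.8% passed, and 3 members did. H19 had a difference of 3.12 (SE 0.54, adjusted p = 0.0026), Igf2bp3 had 1.80 (SE 0.34, adjusted p = 0.0048) and Grb10 had 0.40 (SE 0.10, adjusted p = 0.020), all early falls followed by a rise or by no called change. The call on Grb10 was lost without middle-aged replicate 1, 2 or 3 (adjusted p = 0.053 to 0.065). For Igf2bp1 (0.60, adjusted p = 0.49) and Mest (0.11, adjusted p = 0.77), which fell in both intervals, the difference did not pass. For Igf2, whose fall passed only late, the difference was -0.17 (adjusted p = 0.42), so the size of its change was not shown to differ between the intervals.

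The ratio of Igf2 to H19 in TPM was 4.17 ± 2.02 in young bladders (n = 6), with the lowest at 2.90 and the highest, replicate 4, at 8.25. In middle-aged bladders it was 17.2 ± 4.29 (n = 5), all between 13.5 and 24.1 and above every young bladder. In old untreated bladders it was 8.53 ± 3.00 (n = 6), from 4.40 to 12.4 and below every middle-aged bladder. With water it ran from 7.12 to 18.3 (n = 5) and with vehicle from 5.03 to 16.2 (n = 4), both reaching into the middle-aged range. With D+Q it ran from 7.68 to 9.89 (n = 6). These ratios restate the levels of the 2 genes and were not tested. Within groups, Igf2 and H19 did not vary together over the 32 bladders (Pearson r = 0.12, Spearman rho = -0.015, permutation p = 0.54 and 0.94, adjusted p = 0.67 and 0.94). Without the 2 bladders farthest from the median, r was -0.30. Of 5 such pairs tested, also Dlk1 with Meg3 and Igf2bp1 with Igf2, H19 or Igf2bp3, none passed in a permutation test, and r ran from 0.022 to 0.22 (lowest adjusted p = 0.62). With a pseudocount of 1 CPM in place of 0.1, r was 0.50 for Igf2bp1 with H19, 0.40 with Igf2bp3 and 0.35 with Igf2 (adjusted permutation p = 0.22 for each).

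Among 30 other imprinted genes, 8 of 28 tested changed from 2 to 10 months, 6 down and 2 up. The background was 5.85% of genes down and 4.96% up. Slc38a4, an amino acid transporter gene of placenta and liver, fell from 10.3 ± 1.58 (n = 6) to 3.94 ± 0.593 CPM (n = 5), a log2 change of -1.40 (SE 0.13, adjusted p = 0.00011). Ndn, a growth suppressor of the Prader-Willi region, fell by 0.63 on the log2 scale (SE 0.07, adjusted p = 0.00069). The other falls with the smallest adjusted p were in the maternal noncoding RNAs Mirg (-1.05, SE 0.14, adjusted p = 0.0012) and Rian (-0.83, SE 0.17, adjusted p = 0.010). The median over the list was -0.11. The calls on these 4 genes held without any 1 bladder, but the count for the list ran from 4 to 12, and it fell to 4 or 5 without middle-aged replicate 1, 2, 3 or 5 or young replicate 1, 2 or 6.

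Rian and Mirg lie beyond Meg3 on chromosome 12, in a cluster of 6 listed imprinted genes from Dlk1 to Dio3 that spans 828275 bases. All 3 listed noncoding RNAs of this cluster fell by 10 months and none was called later, with late differences of -0.18 for Meg3, -0.04 for Rian and 0.11 for Mirg. The protein genes of the cluster were not called early. Dlk1 had -0.39, Rtl1 had -0.86 (adjusted p = 0.10), and Dio3 was too low to test. This grouping was made after the values were seen. On distal chromosome 7, the 8 listed imprinted genes from H19 to Phlda2 went different ways. H19 and Tssc4 fell, Slc22a18 rose by 0.39 (adjusted p = 0.019), and Igf2, Ascl2, Kcnq1ot1, Cdkn1c and Phlda2 did not pass. The call on Slc22a18 was lost without middle-aged replicate 3 or 5 (adjusted p = 0.051 and 0.059). The call on Tssc4 was lost in 9 of the 11 fits that left out 1 bladder (adjusted p = 0.059 to 0.13), all but those without young replicate 4 or 5.

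**Figure D3:**
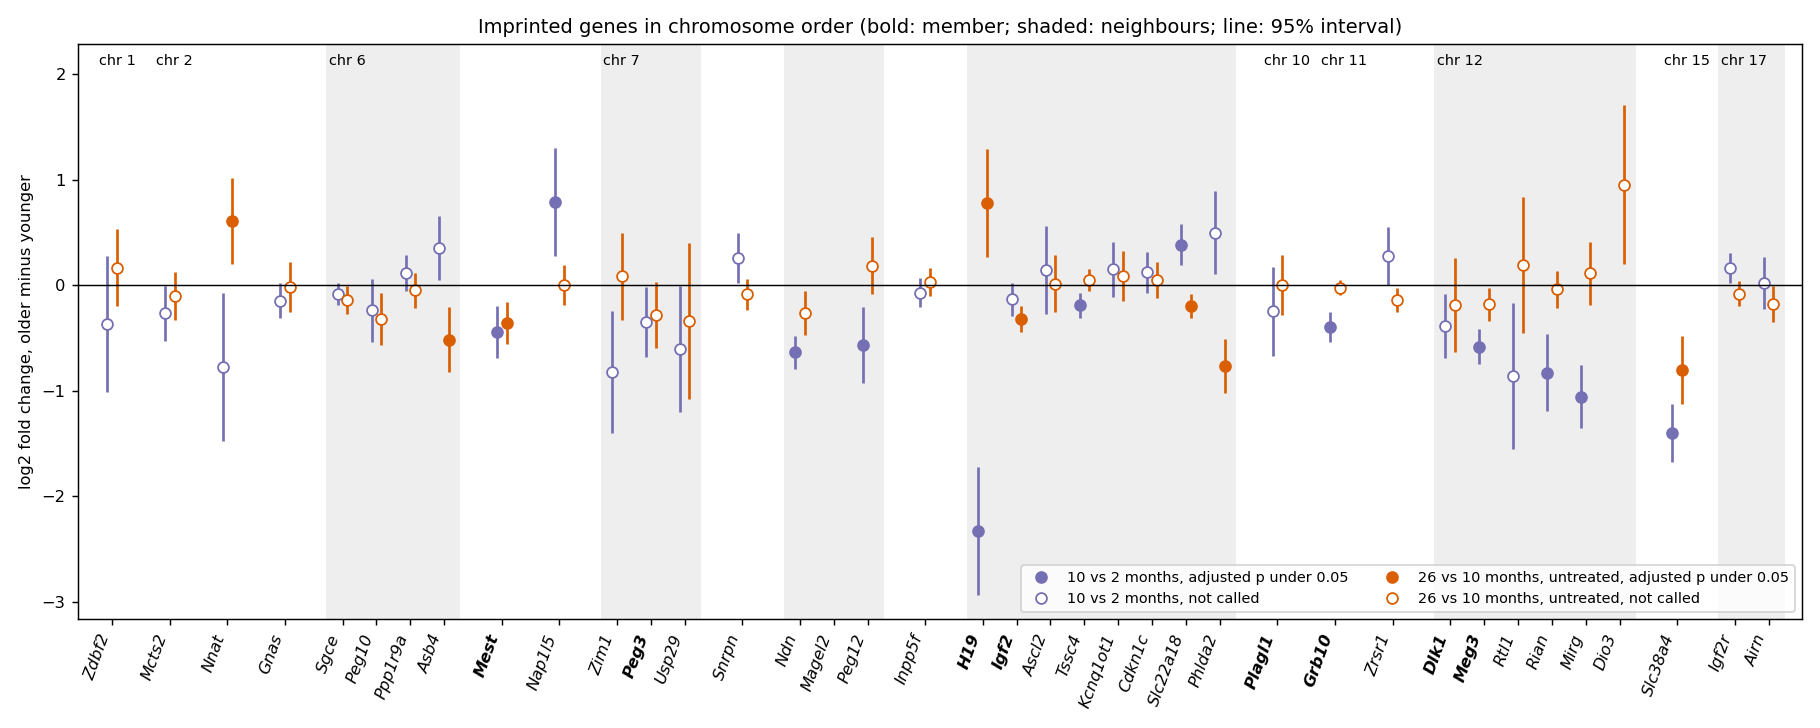
Log2 fold change (y axis) of 38 imprinted genes in chromosome order (x axis, not to scale), with the members in bold, neighbors within 1000000 bases shaded together, lines as 95% intervals and filled points for an adjusted p under 0.05. Meg3, Rian and Mirg on chromosome 12 are filled below 0 for the early interval only, and Mest and Slc38a4 are filled below 0 for both.

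From 10 to 26 months, 5 of 29 other imprinted genes tested changed, 4 down and 1 up, against 11.0% and 13.0% of all genes. Phlda2, a gene that restrains placental growth, fell from 9.88 ± 1.10 (n = 5) to 5.72 ± 0.987 CPM (n = 6), a log2 change of -0.77 (SE 0.12, adjusted p = 0.00054). Slc38a4 fell again, by 0.80 on the log2 scale (SE 0.15, adjusted p = 0.0020), to 2.22 ± 0.462 CPM. Slc22a18 fell by 0.19 (adjusted p = 0.019) and Asb4, a ubiquitin ligase component, by 0.52 (adjusted p = 0.019). Nnat, a small membrane protein gene, was the 1 that rose, and its call was lost in 5 fits without 1 bladder (adjusted p = 0.054 to 0.078). The call on Slc22a18 was lost without middle-aged replicate 3 (adjusted p = 0.050) and that on Asb4 without middle-aged replicate 5 (adjusted p = 0.053). With all 6 groups in 1 fit the calls on Slc22a18 (adjusted p = 0.086) and Nnat (adjusted p = 0.21) were lost.

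The IGF axis list held receptors, binding proteins, receptor substrates, proteases and their inhibitors, and Igf1. Of 18 of its genes tested, 5 fell and 0 rose from 2 to 10 months, against 5.85% and 4.96% of all genes. Igfbp7, a secreted binding protein, fell by 0.36 on the log2 scale (SE 0.06, adjusted p = 0.0027), and Igfbp5, another, fell by 0.73 (adjusted p = 0.017). Igf1, the postnatal growth factor, fell by 1.33 (adjusted p = 0.023) and Stc2, an inhibitor of IGF-releasing proteases, by 0.50 (adjusted p = 0.023). The call was lost in 4 of 11 fits without 1 bladder for Igf1, in 3 for Stc2 and in 1 for Igfbp5, in each case without a middle-aged bladder. The count for the list fell to 2 or 3 without middle-aged replicate 1, 2, 3 or 5. The receptors Igf1r, which signals, and Igf2r, which clears the ligand and is itself imprinted, had differences of -0.02 (adjusted p = 0.87) and 0.16 (adjusted p = 0.13). From 10 to 26 months 3 of 18 fell and 2 rose, a share near the 24.0% called of all genes. Stc1 fell by 0.86 (adjusted p = 0.0071), Igfbp3 by 0.50 (adjusted p = 0.011) and Igfbp5 by 0.40 (adjusted p = 0.0074), while Stc2 rose by 0.25 (adjusted p = 0.0048) and Igf1 by 0.32 (adjusted p = 0.026). The call on Igf1 was lost without middle-aged replicate 3 or 4 (adjusted p = 0.073 and 0.065). With all 6 groups in 1 fit the calls on Igf1 (adjusted p = 0.44), Stc2 (adjusted p = 0.14) and Igfbp5 (adjusted p = 0.062) were lost, and the count for the list was 2.

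LIN28 proteins hold back the let-7 miRNAs, which repress the Igf2bp genes, and a list of 14 fetal growth genes was read beside the members. Lin28b rose while both binders were lower in old than in young bladders. Lin28b went from 0.193 ± 0.121 CPM in young (n = 6) to 0.698 ± 0.143 in middle-aged (n = 5) and 1.20 ± 0.227 CPM in old bladders (n = 6). It rose by 1.74 (SE 0.37, adjusted p = 0.013) and then by 0.82 (SE 0.17, adjusted p = 0.0048). The young mean lay at the floor of detection, 0.0880 to 0.203 CPM in young libraries, so counting error limits the size of the first rise. Sox11, a transcription factor of embryonic mesenchyme and neurons, fell early by 2.33 (adjusted p = 0.0062). Its middle-aged mean of 0.173 CPM was near the floor of those libraries, 0.0827 to 0.0983 CPM. Uhrf1, a maintenance factor of DNA methylation that rises with DNA replication, fell early by 1.90 (adjusted p = 0.015) and then rose by 1.34 (adjusted p = 2.5e-05). Arid3a rose by 0.33 (adjusted p = 0.016) and Cdc25a, a cell cycle phosphatase, fell by 0.17 (adjusted p = 0.0053) from 10 to 26 months. In all, 2 of 12 tested genes fell and 1 rose early, against 10.8% called of all genes, and 1 of 11 fell and 3 rose late, against 24.0%. The late count was 2 with all 6 groups in 1 fit, and there the late calls on Lin28b (adjusted p = 0.0503) and Cdc25a (adjusted p = 0.069) were lost. Lin28a was too low to test.

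**Figure D4:**
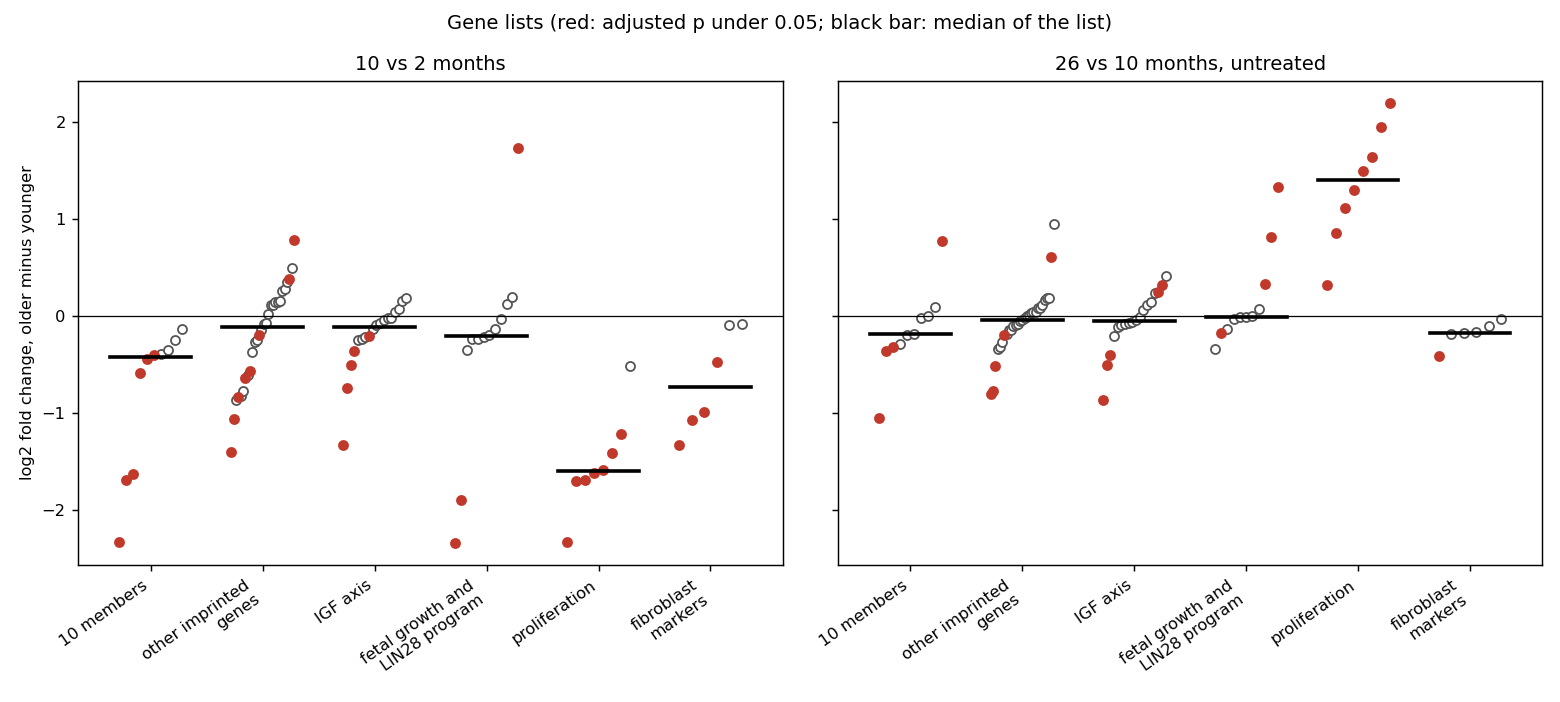
Log2 fold change (y axis) of every tested gene of 6 lists (x axis), for 10 against 2 months at left and 26 against 10 months at right, with genes past an adjusted p of 0.05 in red and the list median as a bar. The 10 members have a median of -0.42 at left, and the proliferation list moves from a median of -1.60 at left to 1.40 at right.

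Other genes moved with these changes. Of 8 proliferation genes such as Mki67 and Top2a, 7 fell from 2 to 10 months and 8 rose from 10 to 26 months. Their summed level was 29.9 to 125 CPM in young, 25.9 to 33.2 in middle-aged and 43.9 to 91.6 CPM in old bladders. The late calls on Cdk1 (adjusted p = 0.080) and Mcm2 (adjusted p = 0.21) were lost with all 6 groups in 1 fit. The early count of 7 fell to 1 to 3 without any one of the 5 middle-aged bladders or young replicate 1, 2 or 6. Of 6 fibroblast markers, 4 fell early, among them Col1a1, Col1a2 and Col3a1, and 1 fell late. The sum of the fibroblast markers was 14673 to 27532 CPM in young and 9835 to 12401 CPM in middle-aged bladders, with none of the 6 at 0. Young replicate 4, the lowest of its group in 6 members, also had the lowest sum in both lists, at 29.9 and 14673 CPM. Young replicate 5 had sums close to these, at 31.3 and 15426 CPM. Of the same 6 members, it held Igf2, H19 and Igf2bp1 above the young median and Plagl1, Grb10 and Igf2bp3 below it. Markers of T cells, 3 of 3, and of B and plasma cells, 4 of 4, rose from 10 to 26 months, and 3 of the latter 4 had also risen by 10 months. Of 6 urothelial markers, 0 were called from 2 to 10 months and 3 fell from 10 to 26 months without overlap, Upk1a (-0.15, adjusted p = 0.017), Upk2 (-0.23, adjusted p = 0.014) and Upk3a (-0.19, adjusted p = 0.0069). The sums of the 6 were 3858 to 4440 CPM in young, 4011 to 4658 in middle-aged and 3751 to 4053 CPM in old bladders. Early falls were also called for 2 of 4 endothelial, 2 of 5 nerve and glia and 1 of 4 skeletal muscle markers. Late falls were called for 1 of 4, 2 of 5 and 1 of 3 of these and for 2 of 5 smooth muscle markers. Of 3 macrophage markers, 2 rose late. Adipocyte and mesothelial markers had no call in either interval. Over all genes tested, 5.85% fell and 4.96% rose early, and 11.0% fell and 13.0% rose late. The part of these genes in the results on the members was not tested.

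The genes whose level most resembled that of a member over all 32 bladders were found by Pearson r of log2 CPM and are given as a description, since age sets much of the shared pattern. Meg3 lay closest to Col16a1 (r = 0.94), Ppic (0.93) and Col6a1 (0.92). Grb10 lay closest to Col5a2 (0.93), Rhobtb3 (0.93) and Col3a1 (0.93). Igf2bp3 lay closest to Pxdn (0.90), Grb10 (0.90) and Adamts2 (0.90), and Igf2bp1 to Npnt (0.92), Cdh2 (0.90) and Col5a3 (0.90). The gene nearest to H19 was another member, Igf2bp3 (0.82), followed by Sgms1 (0.81) and Sec24d (0.81). Igf2, in contrast, stood at rank 2339 in the list of H19 (0.38).

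Mest and Peg3 lay closest to another imprinted gene. Mest was nearest to Slc38a4 (0.87), then Kcnq5 (0.84) and Ncam1 (0.83). Peg3 was nearest to Zim1 (0.89), then Ppp1r12a (0.83) and Usp29 (0.82), and Zim1 and Usp29 flank Peg3 within 295951 bases on chromosome 7. Igf2 was nearest to C1qtnf9, Islr and Thra (0.81 to 0.82), Plagl1 to Acvr2a (0.91), Ppp3cb (0.90) and Tmed7 (0.89), and Dlk1 to Gm4544, Fpgs and Gm28875 (0.68 to 0.70).

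The gavaged groups asked whether D+Q, or the handling itself, moved these genes at 26 months. No member passed in any of the 5 comparisons, and no member tested had groups that did not overlap. Groups did not overlap for 3.11% of genes in water against untreated bladders, 2.42% in vehicle and 0.616% in D+Q against untreated, and 0.996% and 1.15% in D+Q against vehicle and water. Also, D+Q against untreated, vehicle or water called 0.00% of genes in edgeR. For D+Q against untreated bladders, 2200 of 17037 genes had an unadjusted p under 0.05 and DESeq2 called 172. For D+Q against vehicle the numbers were 722 and 13, and against water 1342 and 67. Vehicle against untreated also called 0 genes, with 1464 and 127, and water against untreated called 1.0% of 17250.

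Mest had the largest difference between D+Q and untreated bladders. It held 2.69, 2.95 and 3.85 CPM at the lowest, median and highest of the D+Q bladders, against 2.17 to 2.91 CPM in untreated old ones, with overlap. The log2 difference was 0.29 (95% interval 0.058 to 0.53, adjusted p = 0.33). Against vehicle the log2 difference was also 0.29 (-0.031 to 0.61) and against water 0.21 (-0.060 to 0.48). H19 had the largest difference between D+Q and vehicle, -0.33 (-0.83 to 0.18, adjusted p = 0.99). The untreated, vehicle and D+Q comparisons share bladders, so these values are not independent.

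Igf2 was higher in each gavaged group, at 31.8 ± 2.55 CPM with water (n = 5), 30.5 ± 2.50 with vehicle (n = 4) and 30.5 ± 3.33 with D+Q (n = 6), against 27.7 ± 1.86 CPM untreated (n = 6). The log2 differences were 0.18 with water (95% interval 0.048 to 0.32, adjusted p = 0.18), 0.13 with vehicle (-0.023 to 0.28, adjusted p = 0.62) and 0.14 with D+Q (-0.016 to 0.29, adjusted p = 0.43). None passed, the ranges overlapped, and the 3 values share their untreated bladders. For the other members tested with D+Q against untreated, log2 differences ran from -0.20 for Igf2bp3 (-0.56 to 0.15) to 0.22 for Dlk1 (-0.22 to 0.66). Grb10 had the narrowest interval, -0.13 to 0.022. Igf2bp1 was too low for that fit. On log2(CPM + 0.1) it differed by -0.22, with a two-sided exact permutation p of 0.38 (n = 6 and 6).

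**Figure D5:**
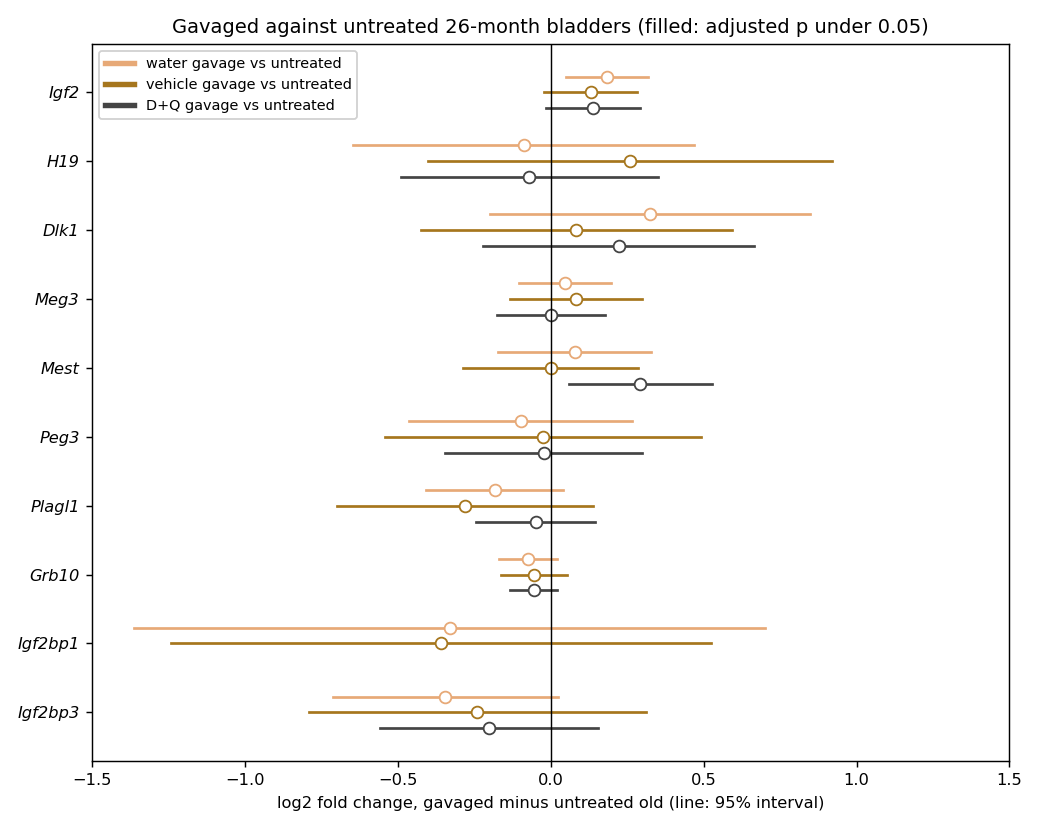
Log2 fold change of each member (x axis) in water, vehicle and D+Q bladders against untreated old bladders, with 95% intervals as lines. No point is filled, since none had an adjusted p under 0.05, and the interval of Mest under D+Q, 0.058 to 0.53, lies above 0 before adjustment.

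Several members were also low in the 26-month gavaged bladders, set here against the same young and middle-aged bladders as in the untreated comparisons. The counts below are therefore not an independent test, and the share of all genes with such counts was not computed. Igf2bp1 was below every middle-aged and every young bladder in 15 of 15 gavaged bladders, at 0.0406 to 0.473 CPM. Meg3, Grb10 and Igf2bp3 were below every young bladder in 15 of 15. H19 was above every middle-aged bladder in 13 of 15, at 0.789 to 2.47 CPM over the 15. Mest was below every middle-aged bladder in 13 of 15, and the 2 above every middle-aged bladder were both D+Q, at 3.47 and 3.85 CPM. Igf2 was below every middle-aged bladder in 9 of 15. The lowest Igf2bp1 value, 0.0406 CPM on 2 counts, lay under the floor of 3 counts in its library.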

How the data were processed

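Per the labels and the study's methods, the authors prepared stranded total RNA libraries from 1 whole bladder each, aligned reads with STAR 2.7.3 to mm10, and counted them per gene with Subread. The deposited values used here are these raw counts for 32285 genes in 32 bladders. Whether the counting used strand is not given in the sources used here. A deposited table of normalized values was not used.

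Groups were taken from the labels. Counts were scaled by TMM and tested with edgeR 4.0.16 (R 4.3.3) by its quasi-likelihood test, with 2 groups per fit, filterByExpr and Benjamini-Hochberg adjustment over all genes tested at a threshold of 0.05. The difference between late and early change was a contrast in 1 fit of the 3 untreated groups. Igf2bp1, under the filter in the D+Q comparisons, was compared by an exact permutation test on log2(CPM + 0.1). Correlations used deviations from group means and 100000 permutations (scipy 1.17.1). The edgeR test of 2 groups was checked on data simulated for old against middle-aged bladders. That simulation gave all genes the same spread and placed changes only in well-counted genes. The other tests, and genes of few counts, were not checked in this way. DESeq2 1.42.0, no low-count filter, all 6 groups in 1 fit, a replicate block, another pseudocount and leaving out each bladder were alternatives.

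Members and gene lists were chosen with earlier results of these data known. All 10 members were named. Of each other list, up to 4 genes with the smallest adjusted p among those called were named from each of the early and late comparisons, and for each member the 3 genes most like it. Igf2bp2, Igf1r, Igf2r, Nnat, the late value of Igf1 and the chromosome neighbors were added after their values were seen.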

Additional observations from a re-analysis of the deposited data

Results flagged for a closer look

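A bladder was looked at again when its gap to the nearest other bladder of its group passed Dixon's 95% value, over 60 combinations of member and group. Chance flags about 1 in 20 such groups, and 3 were found. Igf2 in young replicate 4 was 31.0 CPM, against 38.2 to 42.3 CPM in the other young bladders. Dlk1 in old replicate 1 was 11.2 CPM, against 4.19 to 6.11 CPM in the other old bladders. Plagl1 in middle-aged replicate 4 was 29.5 CPM, against 46.8 to 53.8 CPM in the other middle-aged bladders.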

How the results depend on the processing

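With all 6 groups in 1 fit, 2858 genes passed from 2 to 10 months against 1811, 2519 from 10 to 26 months against 4110 (2 members, Igf2 and Mest, against 4), and 0 in water against untreated bladders. DESeq2 called 172, 694 and 127 genes in D+Q, water and vehicle against untreated bladders, and 13 and 67 in D+Q against vehicle and water. It gave Meg3 a log2 difference of -1.46e-05 under D+Q. Without the filter, 99 genes passed in water against untreated bladders.

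The labels name no pairing of bladders across groups, and samples with the same replicate number correlated at -0.296 to 0.163. The numbers used here and in the block were those of the sample titles. They differ from the numbers in the sample descriptions for some middle-aged, water and vehicle bladders. The description numbers were not tried, so pairing by number was not excluded. With a replicate block, 711 genes passed from 2 to 10 months, 0 in water against untreated bladders and 1 in D+Q against water. The block ended the calls on Mest in both intervals (-0.48, adjusted p = 0.071, and -0.39, adjusted p = 0.057 in edgeR) and on the late minus early difference of Grb10 (adjusted p = 0.070). It added a call on Peg3 from 2 to 10 months (-0.32, adjusted p = 0.031). It also ended the early calls on Lin28b (adjusted p = 0.061), Uhrf1 (adjusted p = 0.051) and Igf1 (adjusted p = 0.055), and the late calls on Arid3a (adjusted p = 0.060), Nnat (adjusted p = 0.074) and Slc22a18 (adjusted p = 0.054).

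Leaving out 1 bladder gave 728 (without middle-aged replicate 5) to 2794 genes (without young replicate 4) from 2 to 10 months. It gave 37 to 199 in water against untreated bladders and 0 to 3 in D+Q against water. Members called ran from 5 to 7 early, 3 to 5 late, 8 to 9 over the whole span and 2 to 4 for late minus early, and were 0 in every gavage comparison. Signs turned for Plagl1 from 10 to 26 months (-0.12 to 0.078), for H19 (-0.16 to 0.13), Meg3 (-0.042 to 0.053) and Peg3 (-0.14 to 0.10) under D+Q, and for Dlk1 (-0.024 to 0.33) and Peg3 (-0.062 to 0.29) late minus early. Without the 2 farthest bladders, Pearson r was -0.30 for Igf2 and H19, -0.050 for Dlk1 and Meg3 and -0.053 for Igf2bp1 and Igf2bp3. The causes were not tested. With 2 to 25 counts of Igf2bp1 in a bladder of 10 or 26 months, counting error limits its values.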
